A study of Mus musculus with 6 samples.

Results

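The comparison described here sets fibroblasts labelled 7 days post infection (dpi) with Tet3 against uninfected mouse embryonic fibroblasts (MEF), on 1 array each. Its members are the probes whose spot was well above background, by the scanner software's own flag, on at least 1 of both arrays. They number 31705 of 39429 probes, or 80.41%. Through the accession printed on the array they name 17650 of the 20659 genes with a symbol. Each value is a level on the log2 scale with the 75th percentile of its array set to 0, and a difference is the level at 7 dpi minus the level in MEF.

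The series measured RNA from 6 cultures on single-colour Agilent mouse arrays: MEF, Tet3-treated fibroblasts at 1, 3, 5 and 7 dpi, and primary neurons, which the labels also give as E13.5. The MEF group is untreated fibroblasts from E13.5 embryos of ICR mice, a mixed primary culture and not a clonal line. The 7 dpi group is the same kind of fibroblast given adenoviral supernatant for Tet3 with polybrene, a polymer that helps virus bind cells, on successive days, and then moved stepwise into neuronal medium with forskolin, an activator of adenylyl cyclase. No group received virus without Tet3, or the medium without virus. Virus, Tet3, medium and time in culture therefore cannot be told apart in this comparison. The MEF and 1 dpi arrays lay in scan 1 and the other 4 arrays in scan 2, so scan and group cannot be told apart either. With 1 array a group there was no replicate and no test, and every difference below describes a pair of arrays, whose number limits the precision.

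Tet3 is a dioxygenase that oxidises 5-methylcytosine in DNA, a first step towards removing the methyl mark. Fibroblasts can be pushed towards a neuronal expression pattern by introduced factors, most often proneural transcription factors, and the RNA-binding protein Ptbp1 and the repressor Rest are known as barriers to that change. Neurons are recognised by their neurofilaments and microtubule proteins, by the vesicle and channel proteins of synapses and axons, and, in endocrine and peptide-releasing kinds, by dense-core granules filled with granins and prohormones.

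Of the 17650 genes, 16297 were well above background on both arrays, 895 only at 7 dpi and 458 only in MEF. At least 2-fold higher levels at 7 dpi were read for 2987 genes (16.9%) and at least 2-fold lower levels for 1197 (6.78%), so that 23.7% differed at this threshold and 71.4% of those were higher. For 665 of the higher and 175 of the lower genes the fold is a bound, written "at least", because 1 array was not well above background. That split depended on the scaling: 48.6% of the called genes were higher after quantile normalization and 42.1% with each array centred on its median, and 60.2% were higher with another background correction (normexp). The median difference over measured genes was 0.14 as deposited and -0.30 with median centring, a shift that applies to every difference printed here. The median error of a difference by the scanner software's error model was 0.20, and replicate spots of a probe had a mean SD of 0.061 in MEF and 0.104 at 7 dpi. Both errors cover the array and not the spread between cultures. Counts of a list below are over its members that were well above background on at least 1 array, and a member detected only at 7 dpi had to read higher, so the median over members measured on both arrays is given as well for the neuronal, muscle and macrophage lists. Near the threshold, 536 genes lay within 0.1 past the 2-fold line and 586 within 0.1 short of it.

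**Figure D1:**
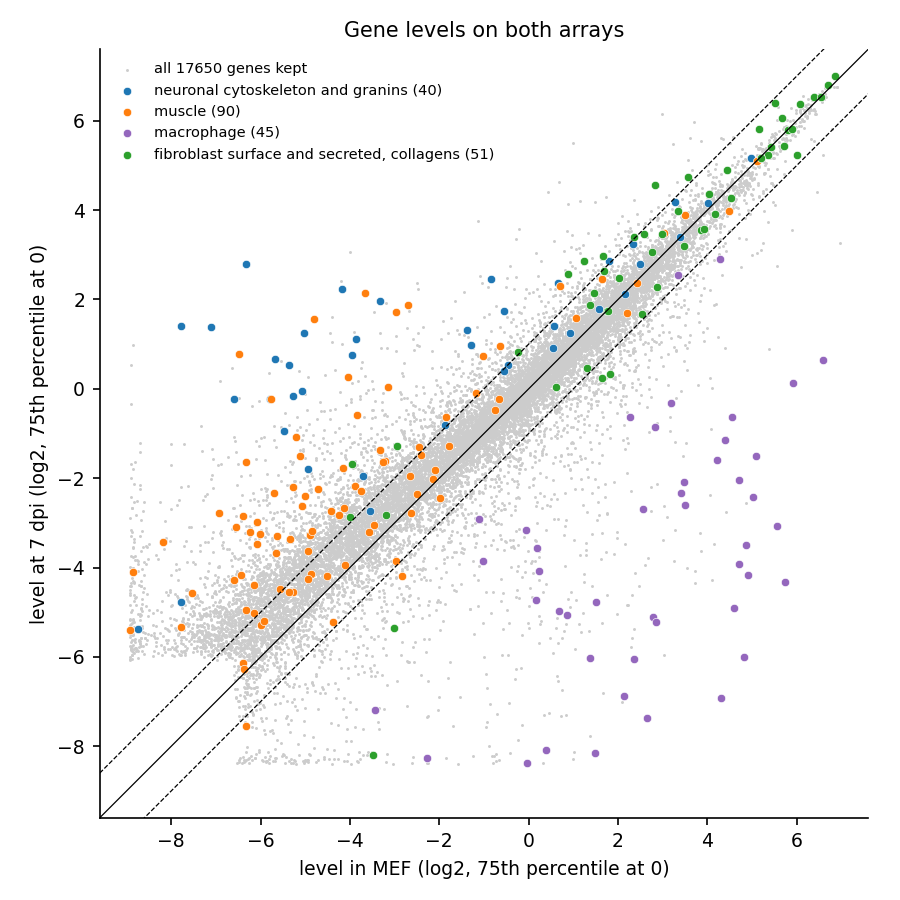
Level of each of the 17650 genes in MEF (x axis) and at 7 dpi (y axis), both log2 with the 75th percentile of the array at 0, with listed genes in colour; the solid line marks equal levels and the dashed lines 2-fold. Neuronal cytoskeleton, granin and muscle genes lie on or above the equal line for the most part, macrophage genes below it, and fibroblast genes near it at the bright end.

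The higher calls lay mostly among dim genes and the lower calls did not. With genes put in 4 equal groups by the mean level of both arrays, 40.2% of the dimmest group were at least 2-fold higher and 5.7% lower. In the brightest group these shares were 3.4% and 5.6%. Many genes detected only at 7 dpi were also detected on other arrays of the same scan: of the 895, 78.1% were well above background at 3 dpi, 86.3% at 5 dpi and 88.9% in primary neurons, against 17.2% at 1 dpi. Of the 458 detected only in MEF, 48.3% were well above background at 1 dpi, on the same scan. On the other scan these shares were 72.9% at 3 dpi, 67.5% at 5 dpi and 68.1% in primary neurons. The part of the scan in the count of dim higher genes was not tested. Of the 492 genes called higher that had several probes, all probes were 2-fold higher for 64.6%, and 4 genes had a probe 2-fold the other way. Of the 290 called lower these were 54.1% and 9 genes.

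**Figure D2:**
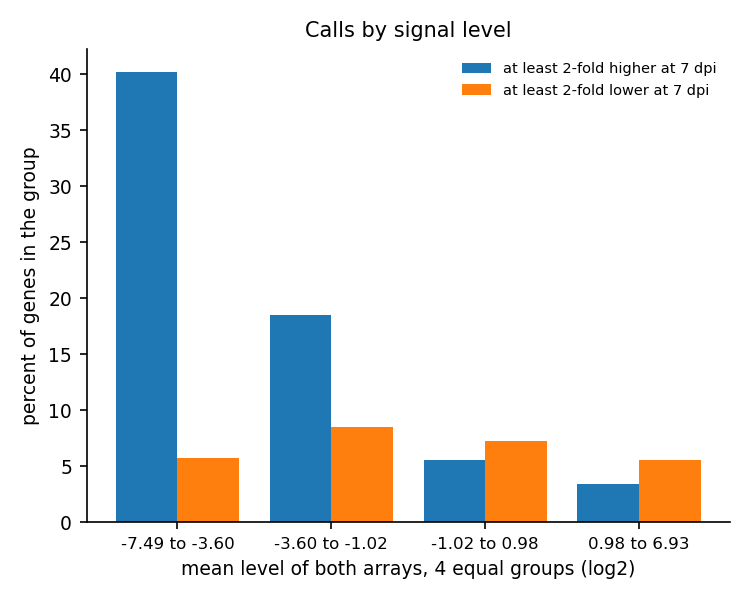
Percent of genes at least 2-fold higher (blue) or lower (orange) at 7 dpi than in MEF, in 4 equal groups of 17650 genes ordered by mean log2 level of both arrays. The share higher is 40.2% in the dimmest group and 3.4% in the brightest, and the share lower lies between 5.6% and 8.5%.

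Tet3 itself was near its MEF level on the array labelled 7 dpi. The label gives a treatment and a day but no Tet3 level, and the cause of this low reading was not tested. Its brightest probe read -0.22 in MEF, 1.13 at 1 dpi, 1.74 at 3 dpi, 2.57 at 5 dpi, 0.07 at 7 dpi and -0.72 in neurons. The probe was high on the 1, 3 and 5 dpi arrays and lay 0.30 (1.23-fold) above MEF at 7 dpi. The next probe read -3.19 in MEF, between -3.64 and -2.83 at 1, 3 and 5 dpi, and -2.78 at 7 dpi (1.33-fold). The third probe read -6.99 in MEF, -1.99 at 1 dpi, -1.13 at 3 dpi, 0.26 at 5 dpi, -7.0 at 7 dpi and -6.37 in neurons. It was well above background at 1, 3 and 5 dpi and not on the MEF, 7 dpi or neuron array. Where each probe lies relative to the introduced sequence is not known here. All directions below therefore refer to the array labelled 7 dpi. Tet1, a related dioxygenase, was 2.32-fold higher by its brighter probe and 1.81-fold by the other. Tet2 lay within 2-fold of MEF by both probes. Of 19 genes of DNA methylation and its removal, 1 was higher (Tet1) and 1 was lower, the cytidine deaminase Apobec1, by -3.82. With median centring 0 were higher and 2 lower, so the Tet1 call was lost. Apobec1 read 4.06 in MEF, 2.49 at 1 dpi, 1.43 at 3 dpi, 0.93 at 5 dpi, 0.23 at 7 dpi and 2.01 in neurons. The median level of the macrophage list below also fell from each of the first 5 arrays to the next. The part of macrophage RNA in the Apobec1 difference was not tested. The methyltransferase Dnmt3a differed by 0.16 and Dnmt3b by 0.30.

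Neuronal transcription factors were higher by small amounts for the most part. Of 56 listed, 46 were kept, and 25 of these passed 2-fold upward and 2 downward. The median over members was 1.08 (0.77 over the 36 measured on both arrays), beside 0.14 over all measured genes. With normexp 15 passed upward, after quantile normalization 13 and with median centring 16. The list was dim, with a median level of -4.56 in MEF and -3.16 at 7 dpi. In the dimmest of the 4 groups of genes the median difference was 0.84 and 40.2% were higher. A difference near this size was therefore common among dim genes. Of the 7 members with a mean level of at least -1, 1 was higher and 1 lower (median 0.18). Insm1, a zinc-finger factor of newborn neurons and endocrine cells, read -8.85 in MEF, -8.39 at 1 dpi, -7.08 at 3 dpi, -0.55 at 5 dpi, 0.97 at 7 dpi and -1.0 in neurons. It was not well above background on the first 3 of these and was at least 191-fold higher at 7 dpi than in MEF, above its level in neurons. Scrt1, a repressor of the Snail family in postmitotic neurons, read -5.46 in MEF and -0.55 at 7 dpi (30.1-fold). Myt1l, which silences non-neuronal genes, read -6.42 in MEF, was not well above background at 1, 3 or 5 dpi, and read -2.88 at 7 dpi and 0.04 in neurons. Its difference was 3.54 (11.7-fold). Sensory and motor homeodomain factors were also higher, Lhx3 by 3.68, Pou4f1 by 3.01 and Isl1 by 2.15, and all 3 read higher at 7 dpi than in the primary neuron culture. Genes of neural progenitors and Notch signalling had 6 of 15 higher and none lower, with a median of 0.95. The Notch ligands Dll1 (12.7-fold) and Dll3 (18.0-fold) and the Notch antagonist Hes6 (3.03-fold) were higher, as was Fabp7, the fatty acid binding protein of radial glia (7.66-fold). Sox2, a neural stem cell factor, was not well above background at 7 dpi, and of 7 astrocyte genes none was higher; Gfap, the astrocyte filament, read -4.48 at 7 dpi against 4.17 in neurons.

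The known barriers lay within 2-fold of MEF. Rest, the repressor of neuronal genes in other cells, lay at -0.09 in MEF and -0.30 at 7 dpi, and of the 13 genes of Rest and its partners 1 was higher (0 higher and 2 lower with median centring). Ptbp1, the splicing repressor of non-neuronal cells, lay at 1.44 in MEF, between 1.36 and 1.49 at 1, 3 and 5 dpi, 1.47 at 7 dpi and 0.15 in neurons. Only the neuron array was low. Neuronal splicing and RNA-binding proteins differed all the same, with 10 of 20 higher and none lower (median 1.09, or 0.62 over the 18 measured on both arrays, and 10 higher also with normexp, quantile normalization or median centring). Elavl3, an RNA-stabilising protein of differentiating neurons, was not well above background in MEF or at 1 and 3 dpi, read -3.25 at 5 dpi, 0.54 at 7 dpi and 2.48 in neurons, and was at least 141-fold higher than in MEF. Srrm4, which drives neuronal microexon splicing, was 17.6-fold higher, Celf3 28.9-fold and Elavl2 at least 30.2-fold. The other probe of Elavl2 gave a difference of 0.94, short of 2-fold. Rbfox3, the NeuN antigen of mature neurons, was 3.82-fold higher, from -5.06 to -3.13, below its level of -0.54 in neurons. The 6 non-neuronal splicing factors on the list lay within 2-fold, with 1 lower under median centring.

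The promoters of 5 genes on which the results turn are printed here, chosen after their values were seen, as the 250 bases before the gene's start on the gene's own strand in RefSeq (GRCm38.p6). Elavl3 and Chgb were taken from the neuronal and granule genes, Cox8b from muscle, Isg15 from interferon and C1qc from macrophage genes. They are examples and need not be typical of their lists. Capitals mark a motif that a search found on either strand: the E-box CAGCTG in Elavl3 and Cox8b, the cAMP response element TGACGTCA in Chgb, the interferon-stimulated response element (GAAA, any 2 bases, GAAA) in Isg15 as 3 overlapping matches, and GAGGAAGT (a PU.1 motif) in C1qc, where it lies reversed.
Elavl3 (chr9:22052024-22052273, minus strand): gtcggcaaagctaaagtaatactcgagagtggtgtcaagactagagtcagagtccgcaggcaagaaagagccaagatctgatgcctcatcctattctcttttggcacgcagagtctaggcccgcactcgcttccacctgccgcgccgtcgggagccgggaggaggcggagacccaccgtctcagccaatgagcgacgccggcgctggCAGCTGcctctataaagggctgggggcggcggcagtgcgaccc
Chgb (chr2:132781392-132781641, plus strand): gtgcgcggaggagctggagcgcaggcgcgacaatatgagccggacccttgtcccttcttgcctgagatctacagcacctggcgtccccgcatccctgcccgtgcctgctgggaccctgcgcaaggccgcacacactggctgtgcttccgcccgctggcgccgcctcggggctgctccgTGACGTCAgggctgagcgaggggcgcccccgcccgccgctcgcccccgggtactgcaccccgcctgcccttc
Cox8b (chr7:140900447-140900696, minus strand): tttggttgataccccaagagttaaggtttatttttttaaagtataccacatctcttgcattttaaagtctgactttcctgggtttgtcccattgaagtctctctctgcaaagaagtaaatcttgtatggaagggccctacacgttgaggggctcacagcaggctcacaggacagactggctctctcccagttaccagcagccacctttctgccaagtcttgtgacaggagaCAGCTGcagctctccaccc
Isg15 (chr4:156200819-156201068, minus strand): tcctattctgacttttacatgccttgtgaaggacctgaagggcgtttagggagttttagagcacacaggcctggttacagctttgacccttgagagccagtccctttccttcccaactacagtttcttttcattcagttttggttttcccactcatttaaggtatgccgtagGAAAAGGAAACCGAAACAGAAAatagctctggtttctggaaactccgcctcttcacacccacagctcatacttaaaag
C1qc (chr4:136892915-136893164, minus strand): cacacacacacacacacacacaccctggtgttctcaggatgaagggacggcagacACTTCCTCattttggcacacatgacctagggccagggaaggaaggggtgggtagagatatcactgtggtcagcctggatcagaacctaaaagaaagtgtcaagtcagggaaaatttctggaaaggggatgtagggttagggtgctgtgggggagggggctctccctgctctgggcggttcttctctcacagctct
The matches begin 43 bases before the start in Elavl3, 72 in Chgb, 19 in Cox8b and 195 in C1qc. A match says only that these letters occur in the window.

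Motif shares were taken over all promoters the table holds for a gene, with 250 bases before and 50 after the start. CAGCTG was found in 16.1% of the 17392 promoters of the genes kept, those well above background on at least 1 array. It was found in 31.3% of the 134 promoters of genes at least 16-fold higher and in 17.3% of the 179 promoters of genes at least 16-fold lower. At the 2-fold threshold these shares were close to each other, 19.6% for higher and 19.4% for lower genes. In the muscle genes that were higher the share was 52.9% (27 of 51 promoters), in neuronal genes that were higher 25.1% (52 of 207) and in macrophage genes that were lower 32.4% (12 of 37). GAGGAAGT was found in 3.0% of promoters of the genes kept. It was found in 17.3% for genes at least 16-fold lower and 0.7% for genes at least 16-fold higher (7.2% and 2.2% at 2-fold). Of the 37 promoters of macrophage genes that were lower, 5 held GAGGAAGT. Most promoters of that list therefore lacked the motif printed for C1qc. The interferon element was found in 8 of the 15 promoters of interferon genes that were higher (53.3%), against 3.2% for the genes kept. TGACGTCA was found in 5.8% of promoters of neuronal genes that were higher. It was found in 2.6% for the genes kept and 1.9% for all genes at least 2-fold higher. The macrophage, muscle and interferon genes were listed by known function, so these shares describe the lists and were not tested.

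**Figure D3:**
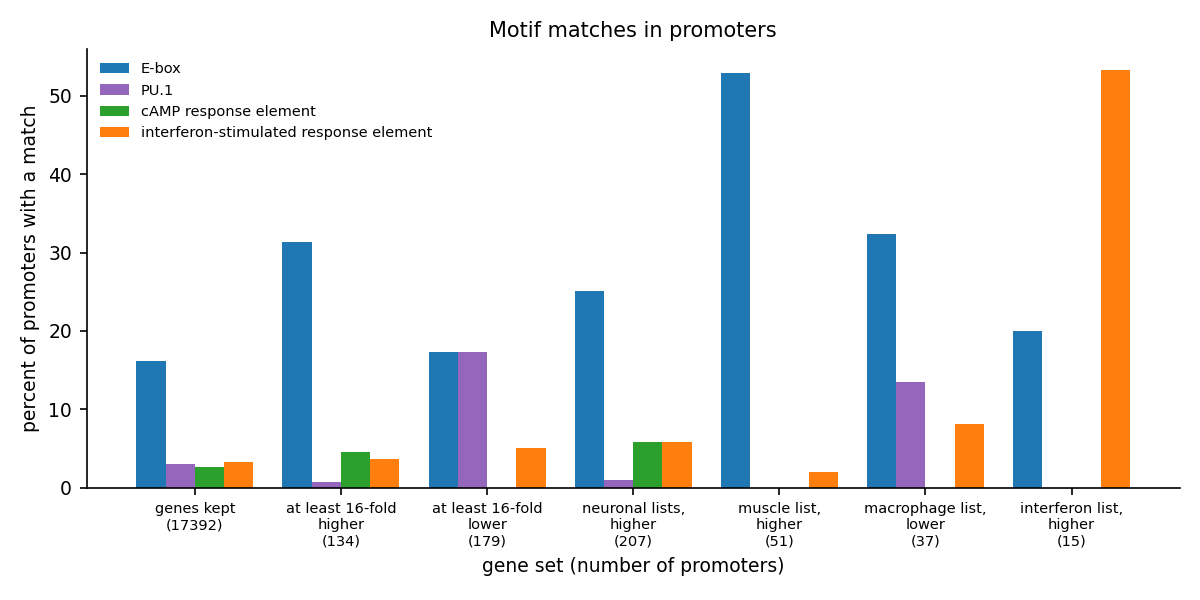
Percent of promoters with at least 1 match of each of 4 motifs, with the number of promoters in brackets. Bars are shown for all genes kept and for 6 sets of genes that were higher or lower at 7 dpi. The E-box bar is highest for muscle genes (52.9%) and the interferon motif for interferon genes (53.3%).

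Proteins of the neuronal cytoskeleton were higher as a group, 20 of 33 past 2-fold and none lower, with a median of 1.70 (1.06 over the 28 measured on both arrays). The count was 17 with normexp, quantile normalization or median centring. Of 7 neurofilament and related filament genes 6 were higher, with a median of 5.58, but 2.30 over the 5 measured on both arrays. Nefh, the heavy neurofilament subunit of large axons, was not well above background in MEF or at 1 and 3 dpi, read -0.18 at 5 dpi, 1.40 at 7 dpi and -2.10 in neurons, and was at least 255-fold higher at 7 dpi. Nefm was at least 82.3-fold higher and Nefl 47.7-fold. Prph, the filament of peripheral neurons, read -5.68 in MEF, -4.49 and -4.29 at 1 and 3 dpi, 2.14 at 5 dpi, 0.67 at 7 dpi and -2.28 in neurons. Nefh, Nefm and Prph read higher at 7 dpi than in the neuron culture, and Nefl did not.

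Stathmins and doublecortin, which regulate microtubules in growing axons, had 6 of 8 members higher with a median of 3.4 (3.01 over the 6 measured on both arrays). Stmn3 was at least 251-fold higher, Stmn2 read -5.02 in MEF and 1.25 at 7 dpi (a difference of 6.27), and Dcx -5.27 and -0.17 (34.4-fold), although the other probes of Dcx gave differences down to 2.55. Tau, Mapt, read -3.96 in MEF, -3.86 at 1 dpi, -3.36 at 3 dpi, -1.87 at 5 dpi, 0.77 at 7 dpi and 4.55 in neurons. It was 26.5-fold higher at 7 dpi and still below neurons. Map2, of dendrites, was 6.52-fold higher. Tubulins had the smallest median of these roles (0.36, or -0.08 with median centring), with Tubb3 as the only one of 7 past 2-fold: it read -0.85 in MEF, -0.50 at 1 dpi, 0.81 at 3 dpi, 1.74 at 5 dpi, 2.46 at 7 dpi and 4.09 in neurons (9.92-fold). Motor proteins and adaptors of axonal transport had 11 of 18 higher and 1 lower (median 1.48), among them the neuronal kinesins Kif5a (4.08) and Kif5c (3.31) and the dynein chain Dync1i1 (5.69). The other probe of Kif5a gave -0.69. Kif3a was the lower one, at -1.16. Axon guidance ligands lay mostly within 2-fold, with 1 of 16 higher and 1 lower (median -0.18). Their receptors had 7 of 20 higher and 1 lower (median 0.51), but 3 and 3 with median centring. Over all genes 16.9% were higher and 6.78% lower.

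Granins, the acidic proteins that fill dense-core granules, held the largest difference upward among genes well above background on both arrays, that of Chgb. Of 7 measured, 6 were higher, with a median of 5.31 and the same count of 6 under normexp, quantile normalization and median centring. Chgb read -6.32 in MEF, -6.18 at 1 dpi (not well above background), -6.05 at 3 dpi, -3.14 at 5 dpi, 2.79 at 7 dpi and 1.45 in neurons. It was low on the first 3 arrays and 553-fold higher at 7 dpi than in MEF. Vgf (84.0-fold), Chga (59.3-fold), Scg5 (39.6-fold) and Scg3 (32.6-fold) were higher, and Scg2 by 4.83-fold from a MEF level of -1.28. The enzymes that process prohormones differed less: Pcsk1 was at least 17.0-fold higher and Pcsk2 6.96-fold, while Cpe, a carboxypeptidase, differed by 0.18.

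Of 29 neuropeptide precursors 23 were kept, 12 of them higher and none lower, with a median of 1.15 (0.91 over the 19 measured on both arrays), and 9 were higher with normexp. Pomc, the precursor of ACTH and melanotropin, read -4.0 in MEF, between -3.40 and -2.62 at 1, 3 and 5 dpi, 3.05 at 7 dpi and -1.99 in neurons. Galanin, Gal, read -1.14 in MEF, -0.60 at 1 dpi, -0.47 at 3 dpi, 1.15 at 5 dpi, 3.75 at 7 dpi and -0.58 in neurons. Both were highest on the 7 dpi array. Calca, the precursor of calcitonin and its related peptide, was 26.0-fold higher by its brighter probe, with a difference of 1.88 by the other, and was also highest at 7 dpi. Cck, cholecystokinin, was higher still at 5 dpi (4.23) than at 7 dpi (1.92). Npy and Tac1 differed by -0.10 and -0.17.

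Synaptic vesicle genes had 30 of 54 members higher and 2 lower, with a median of 1.17 (1.08 over the 46 measured on both arrays). The higher count was 25 with normexp and 22 after quantile normalization, and with median centring 20 were higher and 4 lower. Syt1, the calcium sensor of release, was at least 78.2-fold higher, reading -0.20 at 7 dpi and 3.00 in neurons. Syn1, which tethers vesicles, was 3.28-fold higher, from -2.13 to -0.42, against 2.56 in neurons. Postsynaptic scaffold and signalling genes had 6 of 18 higher and a median of 0.58 (0.56 over the 16 measured on both arrays). The median level of the synaptic vesicle list was -3.31 in MEF, -1.46 at 7 dpi and -0.03 in neurons. Among its members with a mean level of at least -1, 5 of 19 were higher and 1 lower (median 0.29). For postsynaptic genes this was 0 of 4 higher. Over all genes 16.9% were higher, and in the dimmest of the 4 groups of genes 40.2%.

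Ion channels had 23 of 56 higher and 1 lower (median 0.75, or 0.64 over the 45 measured on both arrays), with 12 higher under normexp, 12 after quantile normalization and 14 with median centring. Transmitter receptors had 28 of 48 higher and 2 lower (median 1.12, or 0.99 over the 38 measured on both arrays), 17 and 2 with normexp and 16 and 4 after quantile normalization. Both lists were dim, with median levels of -3.62 and -4.48 in MEF, and 40.2% of the dimmest of the 4 groups of genes were higher. Among members with a mean level of at least -1, 2 of 11 channels and 2 of 6 receptors were higher, with 0 and 1 lower. The higher receptors came from several transmitter systems: the nicotinic subunits Chrna4 (at least 41.4-fold) and Chrnb2 (at least 10.7-fold), the serotonin channel Htr3a (17.8-fold) and the NMDA subunit Grin1 (1.91). Genes that define a transmitter were also mixed. Gad1, which makes GABA, was at least 30.0-fold higher, Slc17a6, a glutamate vesicle transporter, 7.14-fold, and Slc5a7, a choline transporter, 10.5-fold, while the catecholamine enzyme Ddc differed by 0.44 and the acetylcholine transporter Slc18a3 by -0.02. Both lower receptors were purinergic, P2rx7 by -6.05 (its 3 probes lay between that and -1.24) and P2rx4 by -2.27; both are known in macrophages. Ret, the receptor of glial-derived neurotrophic ligands, was 22.5-fold higher.

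**Figure D4:**
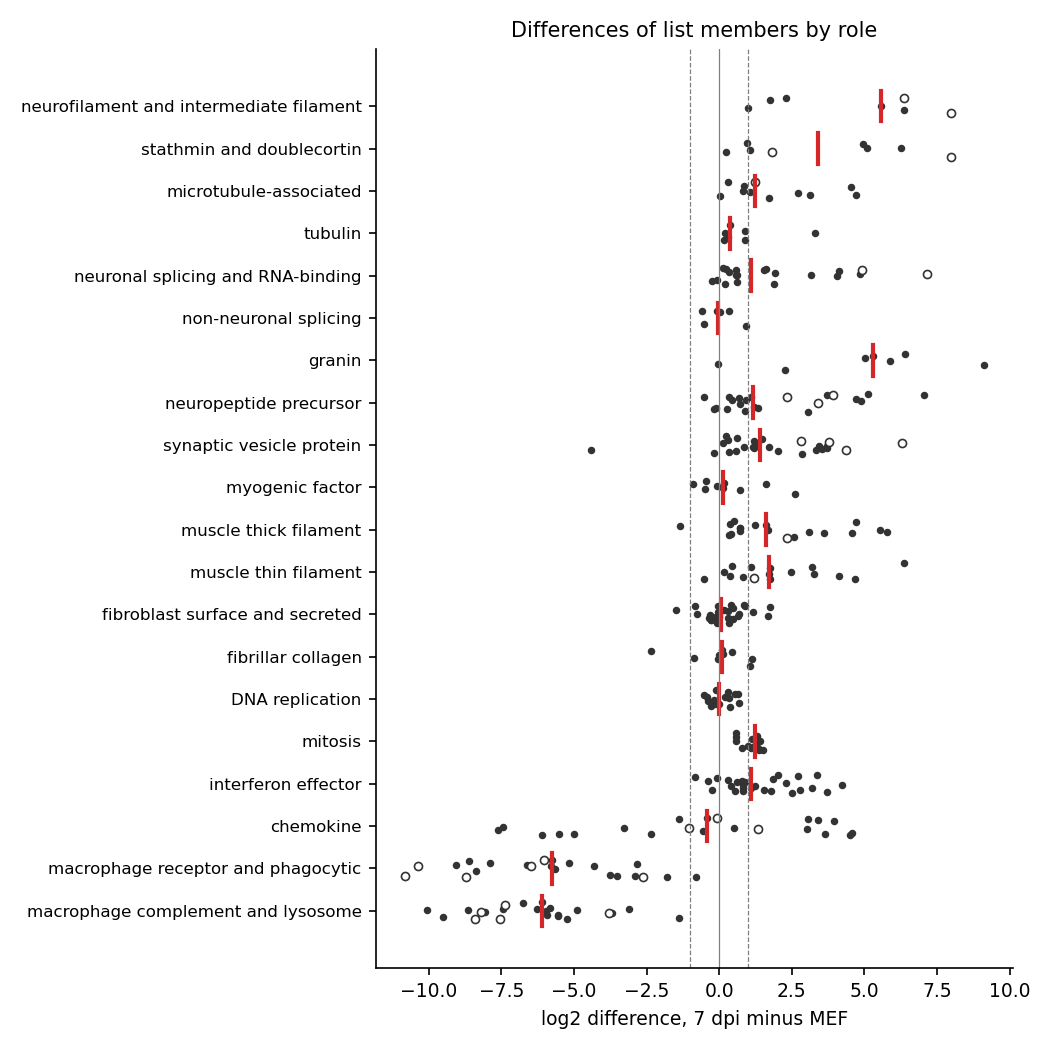
Log2 difference, 7 dpi minus MEF, of each member of 20 roles that gave a difference or a bound. Filled points were well above background on both arrays, open points are bounds, red bars mark the median of a role and dashed lines 2-fold. The neurofilament (5.58, with 2 of 7 members at a bound) and granin (5.31) medians lie to the right, macrophage medians (-5.76 and -6.09) to the left, and non-neuronal splicing, fibroblast and DNA replication medians near 0.

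Genes of striated muscle formed a further large group. Of 98 listed, 90 were kept, 56 of them higher and 1 lower, with a median of 1.60 (1.45 over the 77 measured on both arrays), and 49 were higher with normexp, 44 after quantile normalization and 46 with median centring. The list was dim in MEF. Over all genes 16.9% were higher, and in the dimmest of the 4 groups of genes 40.2%. Of the 17 muscle members with a mean level of at least -1, 7 were higher and none lower (median 0.54). Thin-filament genes had 11 of 16 higher, thick-filament genes 11 of 20, and Z disc and membrane genes 14 of 17 (8 after quantile normalization and 10 with median centring). Tnnt2, the cardiac and embryonic troponin T, read -4.80 in MEF, -1.99 at 1 dpi, -1.18 at 3 dpi, 0.28 at 5 dpi, 1.56 at 7 dpi and -7.08 in neurons, where it was not well above background. The 7 dpi array was highest (81.8-fold over MEF) and the neuron array lowest. Myh3, embryonic myosin, was 55.5-fold higher (from -3.65 to 2.14, against -4.46 in neurons), Myom2 of the M band 46.6-fold, Actc1, cardiac actin, 25.8-fold and Myl1 23.9-fold. Cox8b, a respiratory subunit of muscle and brown fat, was at least 153-fold higher. The median level of the whole list was -4.46 in MEF, -3.59 at 1 dpi, -3.13 at 3 dpi, -2.40 at 5 dpi and -2.54 at 7 dpi, so it did not peak at 7 dpi. The roles differed: the median of thin-filament genes was -1.71 at 5 dpi and -0.02 at 7 dpi, and that of Z disc and membrane genes -2.34 and -2.84. Ankrd1 read 3.27 at 5 dpi and 0.26 at 7 dpi.

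The myogenic factors differed less than the contractile genes, with 2 of 9 higher and a median of 0.12 (-0.14 after quantile normalization and -0.32 with median centring). Myog, which drives myoblast differentiation, was 6.05-fold higher, at -5.0 in MEF and -2.40 at 7 dpi, and Myod1 3.03-fold, at -3.22 and -1.62. Endplate and calcium-release genes such as Chrnd (8.20-fold), Ryr1 (6.87-fold) and Musk (at least 4.08-fold) were higher. Ckm, the creatine kinase of mature muscle, was 2.18-fold higher at a level of -5.02. In bulk RNA a larger number of muscle cells and more muscle RNA per cell cannot be told apart, and the same holds for every cell type below. A short list of heart factors and hormones had 2 of 8 higher, and 1 with normexp, quantile normalization or median centring. The contractile list of smooth muscle had 5 of 15 higher, 3 with normexp or quantile normalization, and 2 higher and 2 lower with median centring. Beside these 2 short lists, the shares over all genes were 16.9% higher and 6.78% lower. Acta2 read 4.74 in MEF, 6.11, 6.08 and 6.26 at 1, 3 and 5 dpi, and 4.66 at 7 dpi, and Cnn1 read -0.86, then 1.40, 2.62 and 1.89, and -1.59 at 7 dpi. Both genes were high on the 3 earlier Tet3 arrays and below MEF on the array labelled 7 dpi.

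**Figure D5:**
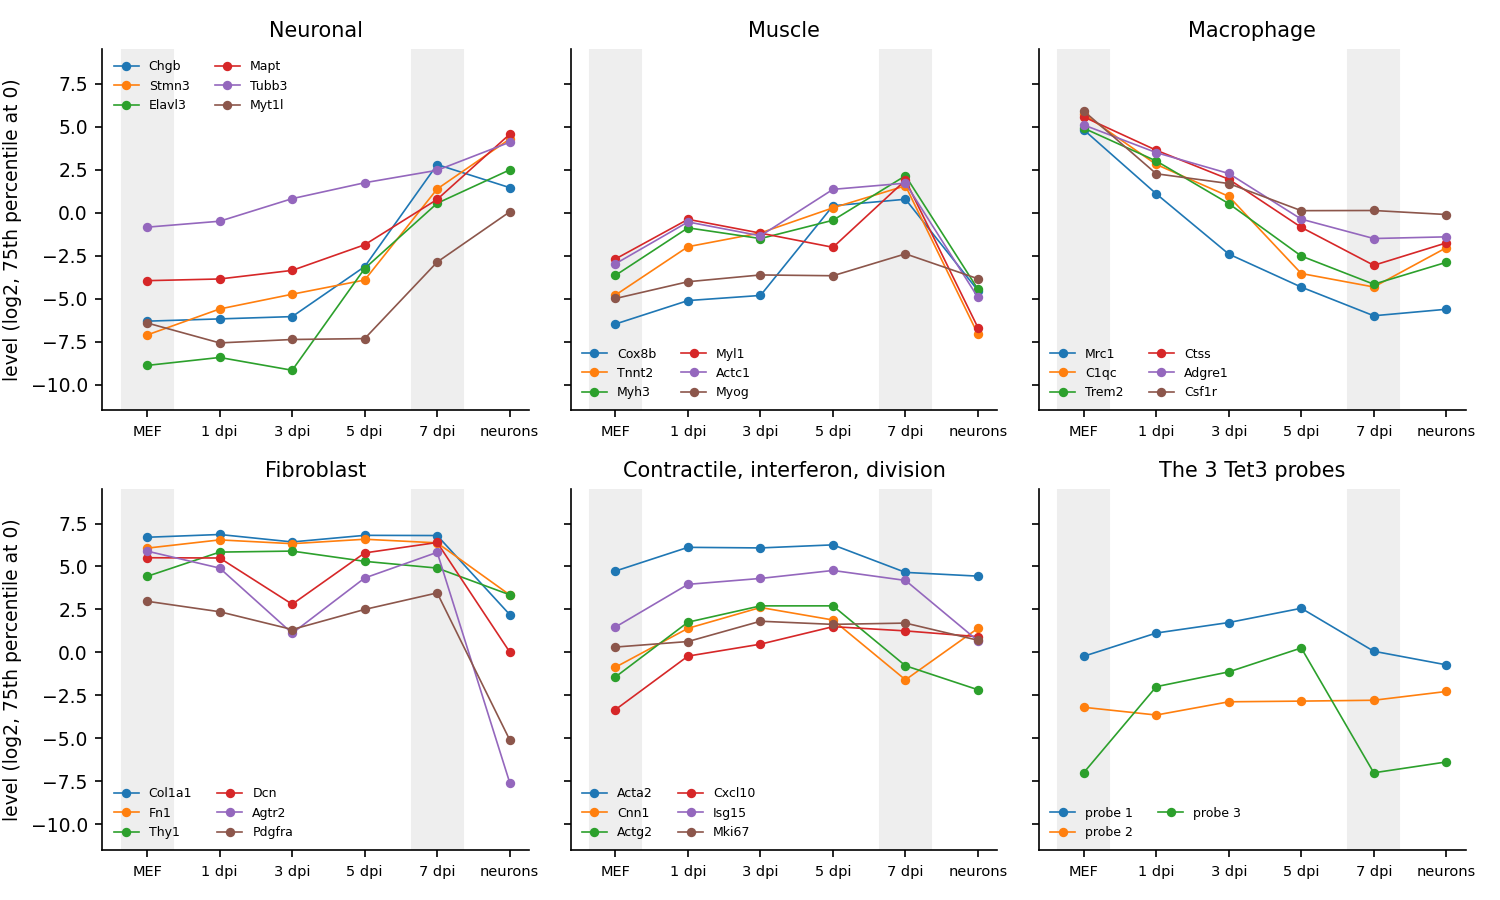
Log2 level of named genes (first 5 panels) and of the 3 Tet3 probes (last panel) on each of the 6 arrays, 1 array per group; lines join values of a gene and grey bands mark MEF and 7 dpi. The 6 muscle genes shown read highest at 7 dpi, although the median level of the whole muscle list was -2.40 at 5 dpi and -2.54 at 7 dpi. The 6 macrophage genes read highest in MEF, and the brightest Tet3 probe reads 2.57 at 5 dpi and 0.07 at 7 dpi.

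Genes of fibroblast identity stayed close to MEF. Of 30 measured, 3 were higher and 1 lower, with a median of 0.08 (-0.36 with median centring, 2 higher and 3 lower). Col1a1, the main fibrillar collagen, read 6.70 in MEF, 6.86 at 1 dpi, 6.43 at 3 dpi, 6.81 at 5 dpi, 6.80 at 7 dpi and 2.21 in neurons. The 5 fibroblast-derived arrays lay within a narrow band and only neurons were low. Fibronectin (Fn1) differed by 0.31, vimentin (Vim) by -0.28, Thy1 by 0.48, Col1a2 by -0.01 and Col3a1 by 0.15. Dcn, the proteoglycan decorin, read 5.51 in MEF, 5.49 at 1 dpi, 2.81 at 3 dpi, 5.79 at 5 dpi and 6.4 at 7 dpi, low on the 3 dpi array alone among these. Elastin (Eln) was the lower gene, by -1.48. Collagens varied more as a list: of 21 kept, 7 were higher and 3 lower, with a median of 0.45 (3 higher and 6 lower with median centring). Over all genes 16.9% were higher and 6.78% lower. Col15a1 (2.26), Col7a1 (1.67) and Col6a2 (1.62) were among the higher ones, and the lower ones were Col10a1 (a bound of -2.58), Col2a1 (-2.33) and Col8a1 (-1.40). Among 28 mesenchymal transcription factors 2 were higher and 2 lower (0 and 6 with median centring), the 2 lower ones being Meox1 (-4.13), a somite factor, and Foxc1 (-2.15).

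Macrophage genes were the list with the largest share of lower members: of 48 listed, 45 were kept, 44 of them lower and none higher, with a median of -5.95 (-5.76 over the 34 measured on both arrays). The count was 44 under normexp and quantile normalization and 45 with median centring. The median level was 2.85 in MEF, 0.64 at 1 dpi, -1.29 at 3 dpi, -3.30 at 5 dpi, -3.86 at 7 dpi and -2.84 in neurons. It was lower on each later Tet3 array than on the one before. The MEF and 1 dpi arrays shared a scan, the other 4 another. The part of the scan in the 7 dpi difference was not tested. Well above background were 45 of the 45 in MEF and 34 at 7 dpi. Lyz2, the macrophage lysozyme, was 269-fold lower, and Tyrobp, the signalling adaptor of myeloid receptors, 395-fold. Ccl6 (174-fold lower) and Ccl8 (197-fold lower), chemokines made by macrophages, followed. Spi1, the factor PU.1, read -2.28 in MEF and was at least 13.8-fold lower. The gene short of 2-fold was Itgam (-0.78), whose probes ranged from -1.92 to 0.80. Csf1r, the receptor macrophages need, differed by -5.78 by its brightest probe, but another of its probes gave 1.62. Mmp9 (26.6-fold lower) and osteopontin, Spp1 (26.4-fold lower), both made by macrophages among other cells, were lower as well, and the part of macrophage RNA in each was not tested.

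Markers of other cell types gave small counts that depended on the background correction, beside the 16.9% higher and 6.78% lower over all genes. Of endothelial genes 2 of 11 were higher and 2 lower, and 1 and 0 with normexp. Of epithelial genes 4 of 10 were higher and none lower, and 2 higher with normexp. Of erythroid, platelet, mast and lymphoid genes 4 of 12 were higher and 1 lower, and 1 and 1 with normexp.

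Interferon-induced effectors were higher, 14 of 27 with none lower and a median of 1.08 (13 with normexp, 12 higher and 1 lower with median centring). Isg15, a ubiquitin-like antiviral protein, read 1.48 in MEF, 3.96 at 1 dpi, 4.30 at 3 dpi, 4.77 at 5 dpi, 4.19 at 7 dpi and 0.68 in neurons. The 4 arrays labelled as Tet3-treated were high and both others low. Ifi44 was 18.6-fold higher, Ifit1 6.86-fold and Irf7, the factor that amplifies the response, 5.42-fold. MHC class I genes lay mostly within 2-fold, with 1 of 12 higher and 1 lower (1 and 3 with median centring), H2-K1 at -0.48. Chemokines divided, 8 of 22 higher and 9 lower. Cxcl10 was 23.9-fold higher and Ccl2 22.6-fold (1.00 to 5.50), and the lower ones included Ccl6 and Ccl8 above. The acute-phase proteins Saa3 (8.97-fold) and Lcn2 (13.9-fold) were higher, and Saa3 read -1.18 at 3 dpi against 6.15 at 7 dpi.

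Cell-cycle genes split by phase. DNA replication genes all lay within 2-fold (0 of 15 in either direction), while 12 of 17 mitosis genes were higher with a median of 1.25. These lay close to the 2-fold line, and with median centring 1 of 17 remained past it (median 0.82). Mki67, the proliferation antigen, was 2.63-fold higher, at 0.31 in MEF, 1.82 at 3 dpi and 1.71 at 7 dpi. Of the p53 targets and cell-cycle inhibitors, 7 of 20 were higher and 1 lower, but 3 and 3 with median centring. Cdkn2a, the senescence inhibitor locus, was 4.21-fold higher, and the sestrin Sesn1 was 4.30-fold lower. Genes induced by cAMP and immediate early genes, of interest because the medium held forskolin, were 6 of 25 higher and 3 lower with a median of 0.06. The counts were 3 and 3 with normexp and 1 and 4 with median centring. Beside the counts in this paragraph, the shares over all genes were 16.9% higher and 6.78% lower. Ppargc1a, a coactivator induced by cAMP, differed by 3.19 (its other probe by 0.93) and Arc by 1.18, while Nr4a2 differed by -1.89 and Fos by -1.23. Genes of cholesterol synthesis (1 of 19 higher) and glycolysis (1 of 20 higher, 1 lower) lay near MEF. With median centring these counts became 0 higher and 1 lower, and 1 higher and 2 lower.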

How the data were processed

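RNA of 6 cultures was hybridised to 1 single-colour array each, and the MEF and 7 dpi arrays were compared. Per the submitters' processing notes, scans were read with Agilent Feature Extraction 11.0.1.1; the intensity columns the authors deposited are processed signals with background removed. The values used are the authors' deposited log2 table, in which every array's 75th percentile is 0; it correlated with the scanner values at r of 0.99999 for both arrays. Sequencing depth has no counterpart here, and no spot was saturated. Of 39429 probes, 27234 (69.07%) were named through RefSeq accessions. A gene was read by its brightest kept probe. A probe not well above background on 1 array gave a bound against the higher of its own value and the lowest value well above background there. Genes past 2-fold were counted, with no test. The counting was also run on simulated arrays made from the MEF array, with known changes put into brighter probes only. The simulation held no scan or scaling difference and no changed dim probes, so it cannot speak to the calls among dim genes. Lists were summarized by counts and medians beside those of all genes.

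Named genes were Tet1 to Tet3, the 15 genes furthest in each direction, up to 6 members per role with the largest difference, and 18 fixed markers. Members, lists and markers were chosen with earlier results of these data known. Genes named outside that rule (among them Acta2, Cnn1, Agtr2, Ccl2, Csf1r, Itgam, Spi1, Adgre1, Npy, Tac1, Ckm) were chosen after their values were seen, and some genes are not reported here. Alternatives were another background correction (normexp, offset 50, limma 3.58.1 in R 4.3.3), quantile normalization, median centring, other filters, the mean over probes and a 4-fold threshold. Python 3.11.15, numpy 2.4.6, pandas 2.3.3 and matplotlib 3.10.9 were used.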

Additional observations from a re-analysis of the deposited data

How the results depend on the processing

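With 1 array a group, every value rests on 1 culture of each kind, and no paired analysis was possible because no group holds a replicate. Signal over background limits the dim genes, where most higher calls lay. The 2987 higher genes became 1511 with normexp, 1413 after quantile normalization, 1559 with median centring, 395 among genes with a mean level of at least -1, and 730 at a 4-fold threshold. The 1197 lower genes became 2147 with median centring, 568 among brighter genes and 532 at 4-fold. The share of called genes that were higher was 60.2% with normexp, 48.6% after quantile normalization, 42.1% with median centring, 41.0% among brighter genes and 57.8% at 4-fold. Scanner signals, both arrays above background, no filter and the mean over probes left both counts within 1.5 times. The median of the proneural factors turned to -0.11 and that of the glutamate transmitter genes to -0.64 among brighter genes, where fewer members were left. Of 347 named genes past 2-fold, 286 stayed so with normexp, 291 after quantile normalization and 284 with median centring, and none reversed. Most named genes were picked for large differences in this same comparison, so these counts do not speak for other genes. The higher genes shared with the deposited scaling were 50.5% with normexp and 46.6% after quantile normalization; the lower ones were 82.0% and 96.2%. The causes were not tested.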

Other observations

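The genes in this part were chosen after their values were seen, and they are given as values. Foxa2, Resp18, Cryba2 and Iapp were read on the array labelled 7 dpi and were not well above background in MEF. Foxa2, a pioneer factor of endoderm, was at least 41.4-fold higher. Resp18, a granule protein, was at least 41.5-fold higher and was below background on all other arrays except neurons, where it read -2.70. Cryba2, a crystallin, was at least 31.0-fold higher and read -1.64 at 7 dpi. Iapp, the amyloid peptide secreted with insulin, was at least 17.2-fold higher and read -2.49 at 7 dpi and -3.99 in neurons. Foxa2 read -2.60 at 5 dpi, -1.23 at 7 dpi and -5.99 in neurons.

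Krt33a and Krtap17-1, a hair keratin and a keratin-associated protein, were not well above background in MEF. Krt33a read -2.13 at 5 dpi and -1.71 at 7 dpi (at least 29.6-fold over MEF), and Krtap17-1 read -2.95 and -2.0 (at least 24.2-fold). Krt33a read -5.95 in neurons, where Krtap17-1 was not well above background.

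Some genes were low on the 3 dpi array and back at 7 dpi. Reg3g read 0.89 in MEF, 1.77 at 1 dpi, -7.07 at 3 dpi, 0.36 at 5 dpi and 4.13 at 7 dpi. Agtr2, the angiotensin type 2 receptor, read 5.89, 4.91, 1.12, 4.33 and 5.82 on the same arrays, and Mup18 1.44, 0.06, -6.41, -2.03 and 2.65. Only 1 culture was measured at each time.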
